A study of Arabidopsis thaliana with 4 samples.

Results

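*Copia* elements are long terminal repeat (LTR) retrotransposons, which copy themselves through an RNA that is reverse transcribed and inserted elsewhere in the genome. The full-length elements carry an LTR at each end and code for the Gag capsid protein and a polyprotein with protease, integrase and reverse transcriptase. In *Arabidopsis thaliana* most of them are kept silent by DNA methylation and by dimethylation of histone H3 at lysine 9, and single families are known to become active under heat or in plants that have lost methylation.

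The rows described here are the annotated transposon copies of superfamily LTR/Copia, which were found by splitting each identifier at its colons into copy, superfamily and family. They make up 1781 of the 31189 transposon rows and fall into 109 families of 2 to 138 copies, with a median of 11. Seeds were stratified in darkness at 4°C for 2 days, plants were raised on soil at 21°C under 16 h days, and RNA came from whole rosettes at the nine-leaf stage. Wild-type Col-0 and *jmj26*, a T-DNA insertion line in the Col-0 background, had 2 libraries each. *JMJ26* encodes a JmjC-domain protein related to the histone H3K9 demethylase IBM1, and the comparison asks whether *Copia* RNA differs in a plant with that gene interrupted. The labels do not say whether the libraries of a genotype came from separate plants, so p-values measure only the spread between these libraries, and *jmj26* is a single insertion allele, from which the study kept homozygous lines without saying which gave these libraries. The labels give the molecule as genomic DNA, although they describe poly(A) selection of RNA and a strand-keeping library kit.

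The Col-0 tables held 1022041 and 740909 counts and those of *jmj26* held 1998601 and 1497105. The floor used here was 3 counts, which is 1.501 to 4.05 CPM, the count scaled to the total of its library. *JMJ26* itself had 1, 0, 0 and 2 counts in Col-0 replicates 1 and 2 and *jmj26* replicates 1 and 2, all under the floor, so the targeted gene does not check the labels. Libraries are given in this order throughout. Green leaf genes were present in every library, with 6 markers summing to 239, 491, 1035 and 948 CPM, and 4 flower, pollen and seed markers summed to at most 2.00 CPM. Most gene counts lay in rows of genes with an overlapping antisense neighbour. Such rows are 24.9% of gene rows and held 92.4% to 95.7% of gene counts, and the strand setting of the counting is not given in the sources used here. A *Copia* count may therefore come from either strand. The same holds for the counts of *JMJ26*, the markers and the other genes given here. The tables give no coordinates or lengths of copies, so counts are compared between libraries and not per length between copies.

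One library stood apart. In *jmj26* replicate 2, 6 *Copia* copies had 0 counts although each of the other 3 libraries had at least 10, out of 43 copies with that many in the others. No *Copia* copy did so in another library. Over all transposon rows 43 of 632, or 6.80%, were missing in that way from *jmj26* replicate 2 and 0 from any other library, whereas 1 of 3383 gene rows was. The header of its table names its aligned file by a number that differs from the one shared by the other 3. The part of this difference in the results was not tested, and values are given with and without the library or the copies where they move. The 6 copies were chosen by their 0 counts in *jmj26* replicate 2. Leaving them out can therefore only raise the *Copia* share and family values of that library against the others. Copies that were high in that library alone were kept.

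A small part of the annotated *Copia* copies was found in rosette RNA. At least 1 count in any library was recorded for 567 copies, or 31.8%, and 1214 were at 0 in all 4. The same share was 24.7% over all transposon rows and 19.995% over *Gypsy* rows, the other large group of LTR retrotransposons. Detected copies lay on all 5 chromosomes, as read from the identifiers, at shares between 30.6% on chromosome 1 and 34.1% on chromosome 2. Of the detected copies 112 were found in all 4 libraries, 92 in 3, 124 in 2 and 239 in a single library. None of the 239 exceeded 16 counts.

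The counts were concentrated in few copies. The first 5 copies held 49.0% of the 29690 *Copia* counts and the first 12 held 65.9%. Among families the first 5 held 68.4% and the first 12 held 85.8%. At the other end, 56 families had 1 to 20 counts over the 4 libraries and 3 had none. Not every large family had many counts: of 14 families with at least 30 copies, 5 had at least 100 counts. ATCOPIA28, with 81 copies, had 39 counts in all. In 16 of the 26 families with at least 100 counts, a single copy held more than 50% of the counts of its family.

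The share of RNA in *Copia* rows overlapped between the genotypes when all rows were used. It was 0.590%, with a 95% Wilson interval of 0.576% to 0.606%, and 0.568% (0.551% to 0.585%) in the Col-0 libraries, and 0.573% (0.563% to 0.584%) and 0.534% (0.523% to 0.546%) in the *jmj26* libraries. The intervals cover counting error only. The *jmj26* mean was lower by a difference of -0.0256 percentage points (0.579% ± 0.0160 against 0.554% ± 0.0274, SD, n = 2 each), with a p of 0.667 in a two-sided exact permutation test, which cannot go below 0.333 in this design. Without the 6 copies missing from *jmj26* replicate 2 the shares were 0.547%, 0.530%, 0.532% and 0.534%, and the difference was -0.0055 points. Both *jmj26* libraries lay below both Col-0 libraries without ATCOPIA24, the *Copia* family with the most counts (0.430%, 0.405%, 0.393% and 0.370%), and also without the DNA transposon copy AT5TE40480 (0.591%, 0.587%, 0.574% and 0.534%), each with the smallest p the exact permutation test allows, 0.333. With each library left out in turn the difference was between -0.0450 and -0.0062 points. In bulk tissue, fewer cells of a type and less RNA per cell cannot be told apart.

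As a share of transposon counts, *Copia* rows held 3.39% and 2.62% in the Col-0 libraries against 3.33% and 2.99% in *jmj26*. The difference was 0.161 points (p = 1 in the exact permutation test). The low value of Col-0 replicate 2 stood beside one DNA transposon copy, AT5TE40480, which took 15.2% of the transposon counts of that library and 0.122% to 0.956% in the others. Without that row the shares were 3.39%, 3.09%, 3.36% and 2.996%, and the difference turned to -0.0581 points.

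**Figure D1:**
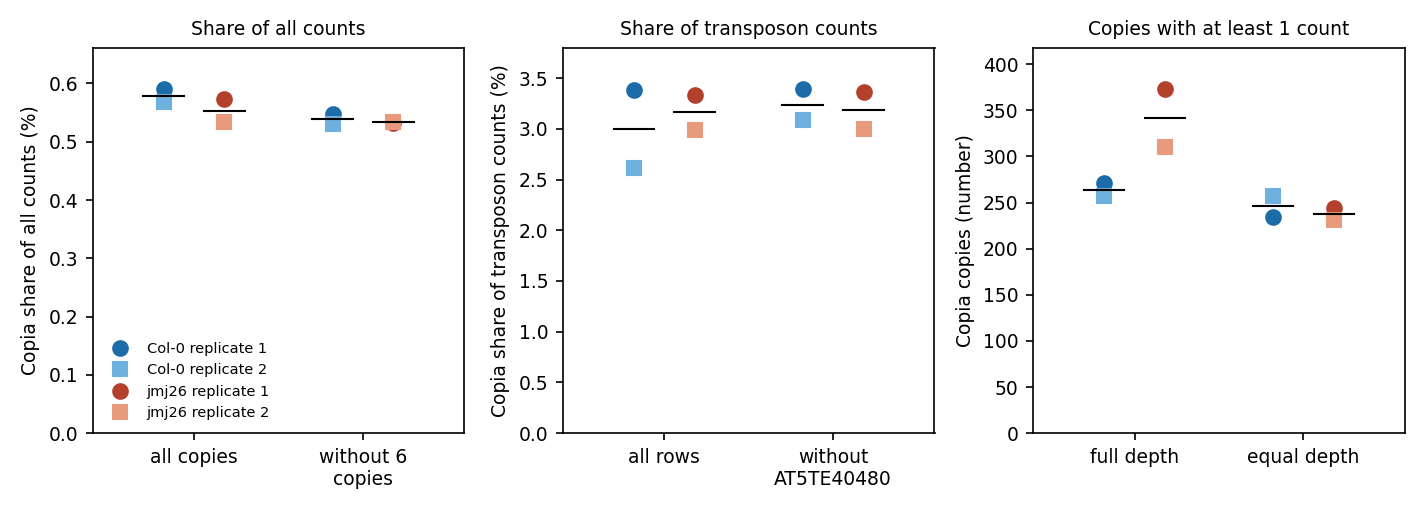
Points are libraries and bars are genotype means, for the share of all counts in *Copia* rows (%), the share of transposon counts in *Copia* rows (%), and the number of *Copia* copies with at least 1 count. At equal depth the 4 libraries had 231 to 257 copies, whereas at full depth the deeper *jmj26* libraries had 310 and 373.

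The number of detected copies followed depth. At full depth the Col-0 libraries detected 271 and 257 copies, against 373 and 310 in *jmj26*. When each library was reduced to the smallest total of 740909 counts, the Col-0 libraries had an expected 234 and 257 copies, against 245 and 231 in *jmj26*. The genotypes overlapped, with a difference of -7.68 copies (246 ± 16.0 against 238 ± 9.28, SD, n = 2 each, exact permutation p = 0.667). With at least 3 counts required, the numbers were 93.6, 96.0, 94.8 and 94.1. When libraries were instead reduced to the smallest total of transposon counts, the numbers at that minimum were 101.7 and 96.0 against 107.0 and 105.02. Both *jmj26* libraries then lay above both Col-0 libraries (difference 7.18, exact permutation p = 0.333). With at least 1 count the genotypes overlapped (259, 257, 272 and 252). All transposon rows at the minimum of 3 also overlapped (1266, 1181, 1258 and 1253). The smallest transposon total was that of Col-0 replicate 2, where AT5TE40480 took 15.2% of it. Copies found in both *jmj26* libraries and in no Col-0 library numbered 37, or 2.08% of copies, beside 1.28% of all transposon rows, and 9 (0.505%) showed the opposite, beside 0.385%, at the unequal full depths. With at least 3 counts in both libraries of the genotype, 3 copies were found in *jmj26* alone, beside 0.0705% of all rows, and 0 in Col-0 alone, beside 0.00321%.

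ATCOPIA24 was the family with the most counts. It had 1649, 1209, 3618 and 2462 counts, which is 1613, 1632, 1810 and 1645 CPM, and it held 30.1% of all *Copia* counts. The CPM values of all 4 libraries lay close together. Of its 27 copies 12 were detected, and AT2TE19935 (591, 474, 1296 and 1052 counts), AT1TE58735 (453, 350, 1026 and 610) and AT4TE64410 (406, 247, 841 and 685) held most of the counts. The log2 fold change of the family, *jmj26* over Col-0, was 0.06 ± 0.13 (SE), with a 95% interval of -0.25 to 0.37. A change of the family by a log2 value of 1 lies outside this interval. Its copy AT2TE44710 was missing from *jmj26* replicate 2. Without that copy the family had 1510 and 1518 CPM in Col-0 against 1663 and 1645 in *jmj26*. Both *jmj26* libraries lay above both Col-0 libraries in CPM with and without the copy, narrowly for *jmj26* replicate 2 with it. With the copy and CPM scaled by edgeR's TMM factors, as in the fit, the genotypes overlapped. The scaled values were 1644 and 1727 in Col-0 against 1828 and 1678 in *jmj26*. Without all 6 missing copies the log2 fold change was 0.09.

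The next families were ATCOPIA5, ATCOPIA47 and ATCOPIA37. ATCOPIA5 had 612, 722, 785 and 609 CPM, and 82.4% of its counts came from AT3TE34290 (496, 447, 1299 and 756 counts). The 2 *jmj26* libraries lay on either side of both Col-0 libraries. ATCOPIA47 has 4 copies and came almost wholly from AT1TE37345 (769, 562, 1252 and 934 counts). At 753 and 759 CPM in Col-0 against 627 and 626 in *jmj26*, its genotypes did not overlap. Its log2 fold change was -0.30 ± 0.13 (SE), with a Benjamini-Hochberg adjusted p of 0.596 in edgeR's quasi-likelihood test. ATCOPIA37 had 603 and 551 CPM in Col-0 against 508 and 487 in *jmj26*, again without overlap, and a log2 fold change of -0.24 ± 0.13. Its counts were spread over AT3TE43175 (263, 143, 360 and 253 counts), AT1TE12665 (177, 139, 332 and 244) and AT4TE09225 (113, 90, 221 and 135).

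ATRE1 and ATCOPIA68 followed, and both include copies missing from *jmj26* replicate 2. ATRE1 had 354, 255, 277 and 226 CPM, mainly from AT1TE71950 (152, 116, 234 and 165 counts) and AT1TE72060 (152, 54, 219 and 165). Without its copy absent from *jmj26* replicate 2 it had 299, 231, 228 and 226 CPM. Both *jmj26* libraries then lay narrowly below the lower Col-0 library. ATCOPIA68 had 319, 273, 269 and 198 CPM over 43 copies. Without its 3 copies absent from *jmj26* replicate 2 it had 125, 117, 123 and 198 CPM, and *jmj26* replicate 2 was then the highest of the libraries instead of the lowest. The log2 fold change of ATCOPIA68 was -0.37 ± 0.19 with these copies and 0.37 without them. Since the copies were chosen by their 0 counts in *jmj26* replicate 2, leaving them out could only raise that library against the others.

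ATCOPIA78 is the family of *ONSEN*, elements whose LTRs respond to heat stress factors. It was present here, where the labels name no heat treatment, at 279, 213, 196 and 209 CPM from 12 of its 24 copies. AT3TE92525 (150, 95, 204 and 170 counts) held 54.0% of them and AT5TE15240 (91, 44, 122 and 107 counts) came next. The *jmj26* libraries lay under both Col-0 libraries, one of them narrowly, and the log2 fold change was -0.32 ± 0.17 (95% interval -0.72 to 0.09). META1, the largest family with 138 copies, had 153, 143, 154 and 155 CPM, and 82.9% of its counts came from AT2TE29630 (141, 85, 251 and 188 counts). Its log2 fold change was 0.03 ± 0.14 (95% interval -0.31 to 0.37).

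Of the remaining families named for their counts, ATCOPIA26 had 140, 155, 150 and 60.1 CPM, and its low value in *jmj26* replicate 2 went with AT3TE16920, which had 83, 63, 130 and 0 counts. Without that copy the family had 58.7, 70.2, 85.1 and 60.1 CPM. ATCOPIA64 had 90.0, 81.0, 70.0 and 124 CPM, ATCOPIA6 had 79.3, 70.2, 67.5 and 67.5, and ATCOPIA8A had 102, 58.0, 61.0 and 54.8. Log2 fold changes of these 4 families were -0.51, 0.14, -0.18 and -0.51, each within an interval that included 0. With each library left out in turn, ATCOPIA26 ran from -1.34 without *jmj26* replicate 1 to -0.010 without *jmj26* replicate 2, and ATCOPIA8A from -0.91 without Col-0 replicate 2 to -0.18 without Col-0 replicate 1.

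Families known to move in plants with reduced DNA methylation had few counts. ATCOPIA93, which includes the element *Évadé*, had 4, 1, 21 and 10 counts, or 3.91, 1.35, 10.5 and 6.68 CPM, and was not tested. Both *jmj26* libraries lay above both Col-0 libraries, and 22 of the 36 counts came from AT4TE10320, with 0, 1, 18 and 3. ATCOPIA21 had 2, 2, 1 and 3 counts and was not tested either. ATCOPIA13 had 7, 7, 19 and 12 counts and a log2 fold change of 0.12 ± 0.40, with a 95% interval of -0.84 to 1.08, so a rise by a log2 value of 1 lies within the interval and a fall of that size does not. ATCOPIA4, a family with a member inside the disease resistance gene *RPP7*, had 7, 1, 8 and 9 counts.

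**Figure D2:**
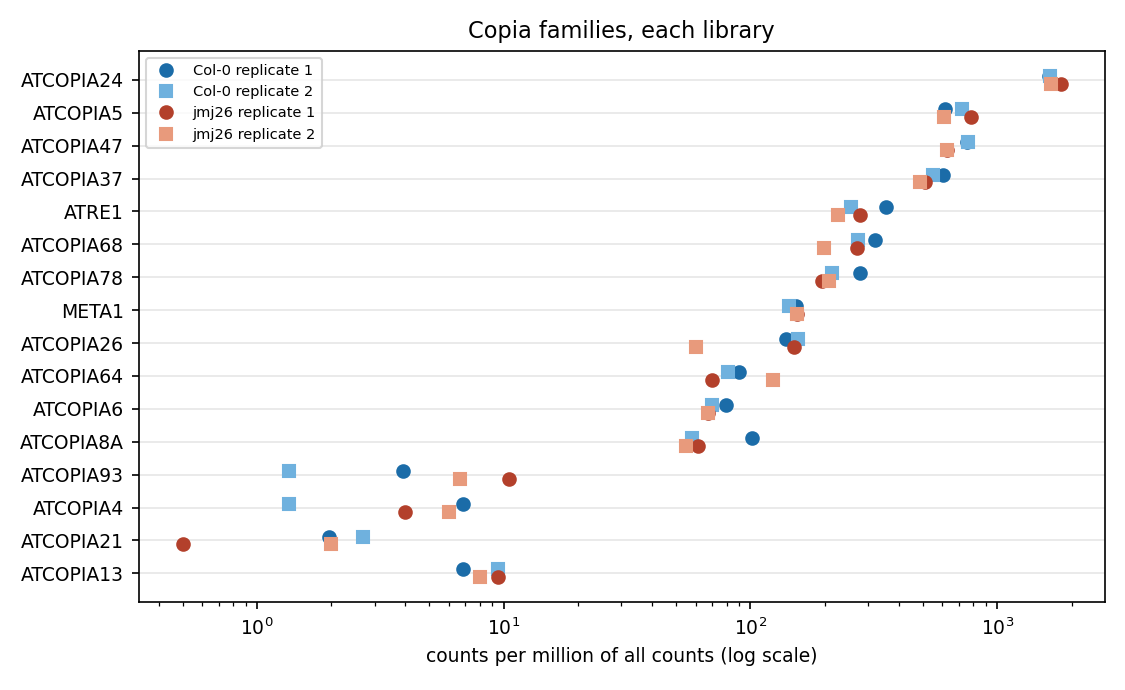
CPM (log scale) of the 16 named families in each library, with circles for replicate 1 and squares for replicate 2. ATCOPIA24 lay between 1613 and 1810 CPM in every library, whereas *jmj26* replicate 2 lay apart in ATCOPIA26 at 60.1 CPM.

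The copies missing from *jmj26* replicate 2 were abundant elsewhere. AT2TE44710 of ATCOPIA24 had 106, 84, 295 and 0 counts, AT2TE55910 of ATCOPIA68 had 97, 65, 182 and 0, and AT4TE24635 of ATRE1 had 56, 18, 98 and 0. The other 3 were AT3TE16920 of ATCOPIA26, given above, and AT1TE58315 (54, 31, 64 and 0) and AT1TE68940 (47, 19, 46 and 0) of ATCOPIA68. Further tested copies at 0 there fell under the minimum of 10 counts in another library. They were AT3TE06390 (19, 9, 29 and 0), AT3TE40800 (8, 12, 22 and 0) and AT1TE00010 (6, 7, 16 and 0). Values without the 6 copies still include them. The reverse was also seen in this library. Of 69 *Copia* copies with at least 10 counts there, 5 had over 3 times the CPM of the highest other library. Over all transposon rows it was 67 of 876. In Col-0 replicates 1 and 2 and *jmj26* replicate 1 it was 0 of 54, 1 of 48 and 1 of 76 copies. The values over all transposon rows there were 2 of 749, 25 of 680 and 6 of 972. Chosen after their values were seen, AT2TE09100 of ATCOPIA64 had 0, 1, 1 and 46 counts, and AT3TE58940 of ATCOPIA95 had 0, 0, 0 and 16 while AT3TE58930 of the same family had 17, 17, 18 and 1. Over 92 copies with at least 20 counts in all, Pearson's r of log2(CPM + 1) was 0.58 to 0.61 between *jmj26* replicate 2 and each other library and 0.88 to 0.92 among the other 3. Without the 6 copies it was 0.76 to 0.80 and 0.88 to 0.92. These are descriptions over copies that share libraries and depth.

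**Figure D3:**
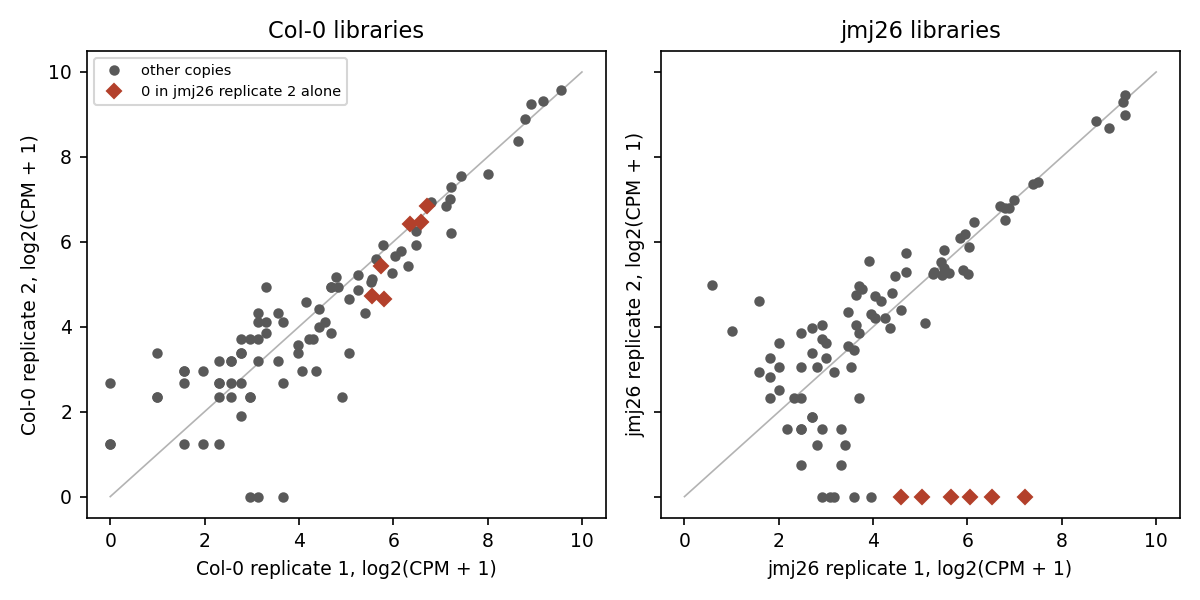
Each point is a *Copia* copy with at least 20 counts over the 4 libraries, plotted as log2(CPM + 1) in replicate 2 against replicate 1 of Col-0 (left) and of *jmj26* (right), with the line of equal values. The 6 copies drawn as diamonds were counted in both Col-0 libraries and lay at 0 in *jmj26* replicate 2. In Col-0, AT4TE24635 lay furthest of them from the line, at 54.8 and 24.3 CPM.

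No *Copia* copy or family passed the test between genotypes. After edgeR's filter on low counts 63 copies were tested, which held 91.7% of *Copia* counts, and 504 detected copies were not. None of the 63 had an adjusted p under 0.05 (edgeR's quasi-likelihood test, Benjamini-Hochberg over 846 transposon copies), beside 0.355% of all transposon copies tested. By unadjusted p under 0.05 there were 3 of 63, beside 8.04% of all transposon copies. Of these 1 was higher in *jmj26*, beside 3.43% of all, and 2 were lower, beside 4.61%. Both *jmj26* libraries lay above both Col-0 libraries in 5 of the 63 copies, beside 12.9% of all, and below them in 16, beside 20.4%. For this count CPM was scaled by edgeR's TMM factors, as in the fit. The 16 include AT1TE68940, AT1TE58315, AT3TE16920 and AT2TE55910, which had 0 counts in *jmj26* replicate 2, and AT3TE58930, which had 1. DESeq2 called 0 copies, beside 0.946%, and edgeR's exact test called 2, AT1TE41800 and AT4TE28200, beside 2.25%. With no filter on low counts 9 of 567 copies were called, beside 1.42%. The median log2 fold change was -0.10 over the 63 copies and -0.08 over the 846, and 22 of the 63 were above 0, beside 352 of the 846. In 28 of the 63 the 95% interval lay within a log2 change of -1 to 1. Without *jmj26* replicate 1, where *jmj26* is represented by the library that stood apart, 10 of 71 copies were called, 2 higher and 8 lower, beside 11.4% of all transposon copies, and 6 of the 10 were the copies missing from that library. Without *jmj26* replicate 2 none of 64 was called, beside 0.234%.

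Of the 109 families 37 were tested. None was called (edgeR's quasi-likelihood test), beside 0% of 203 transposon families, and 3 had an unadjusted p under 0.05, beside 6.4%. DESeq2 called 0, beside 0.493%, and edgeR's exact test called 1, ATCOPIA36, beside 0.985%. With no filter on low counts 2 of 106 were called, ATCOPIA36 and ATCOPIA7, beside 7.3%. The median log2 fold change was -0.04 over the 37 and -0.09 over the 203. In CPM scaled as in the fit, both *jmj26* libraries lay above both Col-0 libraries in 4 families, beside 9.36% of all, and below them in 11, beside 25.6%. The 4 include META1, narrowly, with 155.66 in *jmj26* replicate 1 against 155.56 in Col-0 replicate 1. The 11 include ATCOPIA68, which holds copies missing from *jmj26* replicate 2. They also include ATCOPIA59, whose copy AT3TE06390 had 0 counts there, and ATCOPIA95, whose copy AT3TE58930 had 1. The filter retained low families and copies partly through the group where they are high. Without *jmj26* replicate 1, 5 of 38 families were called, ATCOPIA26, ATCOPIA27, ATCOPIA36, ATCOPIA59 and ATCOPIA68, beside 14.2%. Without Col-0 replicate 1, 1 of 47 was called, ATCOPIA7, beside 2.18%, and without *jmj26* replicate 2 none of 37 was, beside 0%.

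**Figure D4:**
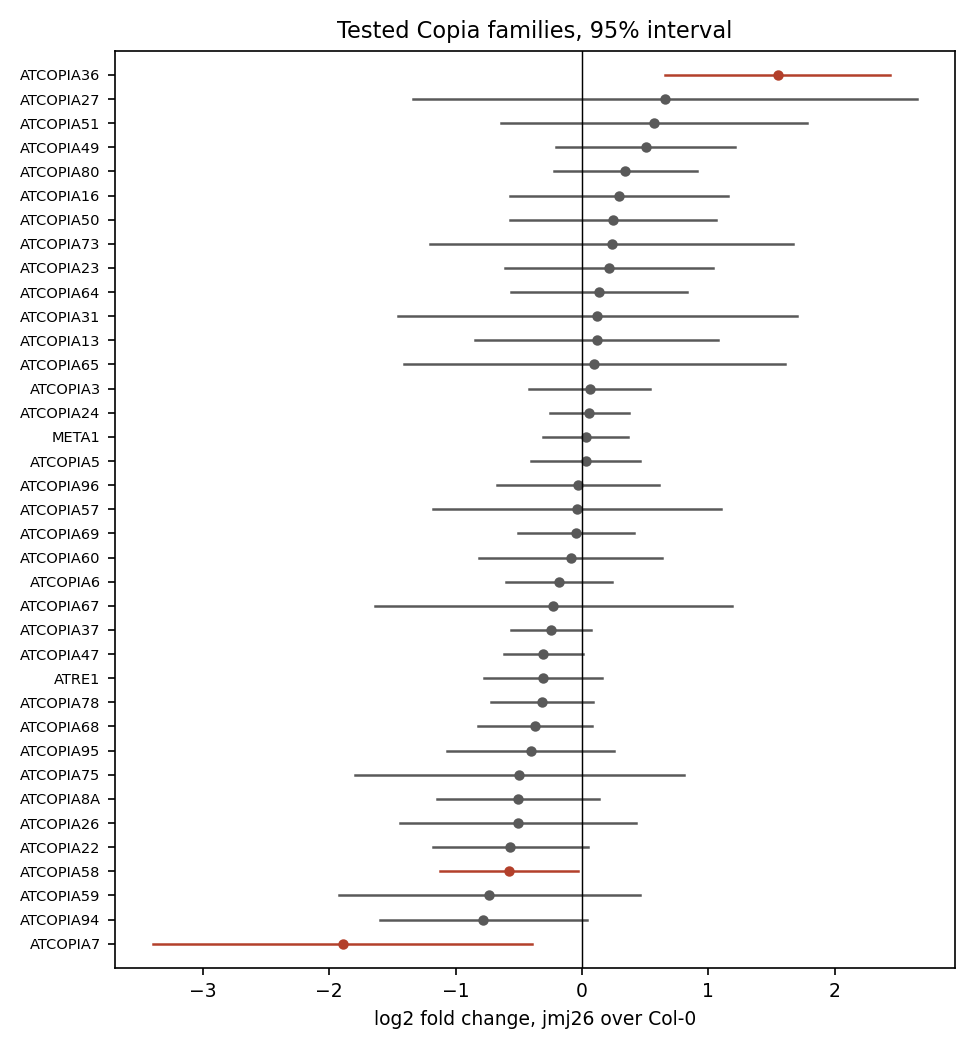
Log2 fold change, *jmj26* over Col-0, of the 37 tested families with its 95% interval from edgeR's quasi-likelihood fit. The 3 families in red had an unadjusted p under 0.05 (ATCOPIA36, ATCOPIA58 and ATCOPIA7), and none passed after adjustment.

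The copy with the smallest p was AT1TE41800 of ATCOPIA36 on chromosome 1. The Col-0 libraries had 2 and 5 counts and the *jmj26* libraries 46 and 30, or 1.96, 6.75, 23.0 and 20.04 CPM, so both *jmj26* libraries lay well above both Col-0 libraries. It passed the filter on low counts only through the *jmj26* libraries, where it was high, and was not tested when every library had to hold 10 counts. Its log2 fold change was 2.37 ± 0.51 (SE), with an adjusted p of 0.295 in edgeR's quasi-likelihood test, and between 1.496 and 3.32 with each library left out in turn. Over all 15 alternatives in which it was tested the adjusted p ran from 0.0013 to 0.966. The other copy of the family with most counts, AT2TE71535, had 8, 9, 23 and 39 counts, or 7.83, 12.1, 11.5 and 26.1 CPM, and its genotypes overlapped. The family summed to 10, 14, 71 and 72 counts, with a log2 fold change of 1.55 ± 0.37 and an adjusted p of 0.497 in the same test. Other values moved with the genotype as well. Green leaf markers are given above, and the median log2 fold change of tested gene rows was 0.63 over the 1343 without a gene on the opposite strand and -0.02 over the 3889 with one. Their part in the ATCOPIA36 values was not tested.

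AT4TE28200 of ATCOPIA7 on chromosome 4 was lower in *jmj26*. Counts were 9 and 22 in Col-0 against 7 and 3 in *jmj26*, or 8.81, 29.7, 3.50 and 2.00 CPM, and Col-0 replicate 2 was far above the other 3. It passed the filter on low counts only through the Col-0 libraries. The log2 fold change was -2.68 ± 0.75, with an adjusted p of 0.438 in edgeR's quasi-likelihood test, and between -3.52 and -1.71 with each library left out. AT1TE71950 of ATRE1 was the third, with a log2 fold change of -0.46 ± 0.15 and an adjusted p of 0.541 in that test. Its counts are given above and its genotypes did not overlap.

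The 3 copies with 0 counts in both Col-0 libraries and at least 3 in both *jmj26* libraries were AT1TE71775 of ATCOPIA8B with 4 and 7 counts, AT4TE53965 of ATCOPIA22 with 3 and 6, and AT4TE50065 of ATCOPIA49 with 3 and 5. In CPM they reached 2.00 and 4.68, 1.501 and 4.01, and 1.501 and 3.34. These lie near the floors of the Col-0 libraries, 2.94 and 4.05 CPM, so no fold is given and a difference was not detectable at this depth.

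**Figure D5:**
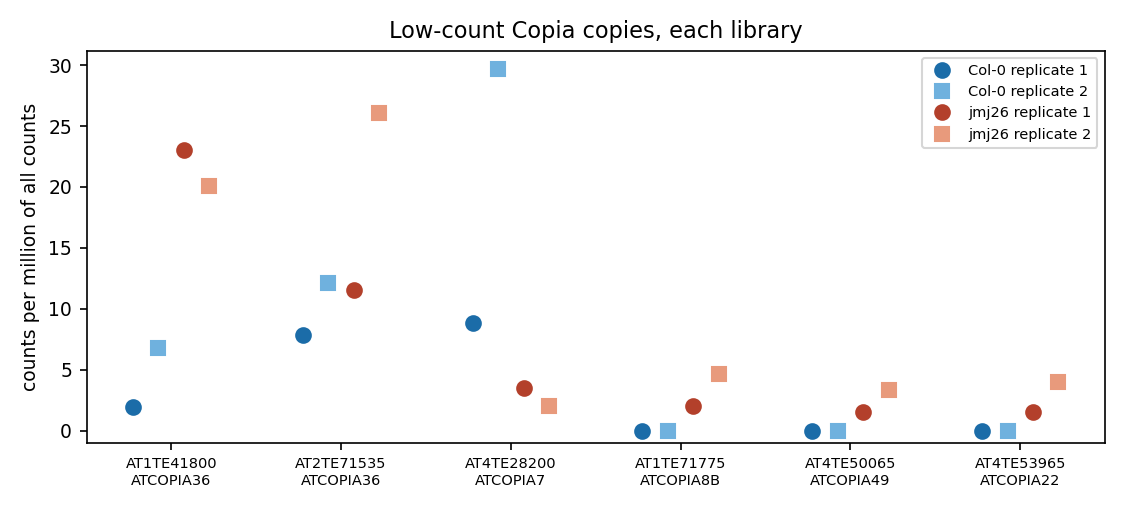
CPM in each library of 6 copies with few counts, with the family under each name. AT1TE41800 had 20.04 and 23.0 CPM in *jmj26* and 1.96 and 6.75 in Col-0, whereas the genotypes of AT2TE71535 overlapped.

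Genes of transposon silencing and its control could not be compared. A list of 22 genes, including those for the chromatin remodeller DDM1, the DNA methyltransferases MET1, CMT2, CMT3 and DRM2, the H3K9 methyltransferase KYP and RNA-directed DNA methylation, held 0 genes that passed the filter. Of these, 9 had at most 3 counts in every library and 3 had none. Summed over the list, Col-0 had 25 and 23 counts against 111 and 80 in *jmj26*, or 24.5 and 31.0 CPM against 55.5 and 53.4. Green leaf markers were also higher in *jmj26*. Tested gene rows had a median log2 fold change of 0.63 over the 1343 without a gene on the opposite strand. It was -0.02 over the 3889 with one. The list's part in the *Copia* values was not tested.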

How the data were processed

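Per the methods, the authors used fastp for trimming, STAR 2.7 for alignment to Araport11 with up to 100 hits per read for transposons, and TEcount for counting. They deposited counts per gene and per transposon copy, without normalization. How reads with several hits were assigned among copies, and the strand setting, are not given in the sources used here, so the values of near-identical copies within a family are uncertain. Counts were therefore also summed by family.

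All 4 libraries were fitted together, with genotype only, in R 4.3.3 with edgeR 4.0.16 (filterByExpr, TMM, glmQLFit with legacy = TRUE, glmQLFTest), on 6078 gene and transposon rows or on 5435 rows with copies summed by family. Benjamini-Hochberg adjustment covered transposon rows and the threshold was 0.05. SE was obtained as the log2 fold change over the root of F. Numbers at equal depth are hypergeometric expectations (scipy 1.17.1). Shares were compared with an exact permutation test. The procedure was run on simulated data with a spread common to all rows and only large planted changes. That run does not show how small changes or a library that stands apart are handled. Alternatives included DESeq2 1.42.0, other filters and scalings, a replicate block and each library left out.

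Named were the 12 families and the 12 copies with the most counts, 6 families of interest, tested copies with unadjusted p under 0.05 and no overlap, and copies at 0 in one genotype. ATCOPIA36 copies beyond this and copies marked so were chosen after their values were seen. Members and lists were chosen with earlier results of these data known.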

Additional observations from a re-analysis of the deposited data

How the results depend on the processing

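No *Copia* copy and no family was called in most alternatives. Exceptions were no filter on low counts (9 copies and 2 families), edgeR's exact test (2 copies and 1 family) and single libraries left out (0 to 10 copies and 0 to 5 families). With the replicate block 0 copies and 0 families were called. Deviations of same-numbered libraries had a correlation of -0.160 over tested gene rows, and the crossed block, added after seeing the data, also called 0 and 0. The median log2 fold change of tested copies was -0.10, but 0.16 with no filter, 0.0065 when every library had to hold 10 counts or more and -0.21 to -0.039 with a library left out. The cause was not tested.

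Shares of transposon counts differed by 0.161 points, by -0.0581 without AT5TE40480, a choice made after seeing the data, and by -0.225 to 0.547 with a library left out. Detected copies differed by -7.68 at equal depth, by 77.5 at full depth, by 4.00 at the smallest transposon total and by -19.0 to 3.61 with a library left out.

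Small log2 fold changes changed sign. Among families, with no filter ATCOPIA24 was -0.047, ATCOPIA5 -0.073 and META1 -0.075. With DESeq2 size factors ATCOPIA5 was -0.0053 and META1 -0.0015. Without the 6 missing copies, left out after seeing the data, ATCOPIA68 was 0.37 and ATCOPIA26 0.15. Leaving out copies chosen by their 0 counts in *jmj26* replicate 2 could only raise that library against the others in these families. Among copies, AT1TE58735 was 0.035, AT2TE29630 0.024 and AT1TE72060 0.018 under that minimum of 10. With transposon rows only they were 0.018, 0.011 and 0.021. AT1TE58735 was 0.0088 with library totals, AT3TE34290 -0.015 with no filter, and AT1TE72060 0.024 with the replicate block and 0.030 with the crossed one. With a library left out, ranges crossed 0 for ATCOPIA24 (-0.10 to 0.12), ATCOPIA5 (-0.24 to 0.20), META1 (-0.079 to 0.025), ATCOPIA64 (-0.33 to 0.49), ATCOPIA13 (-0.28 to 0.26), AT2TE19935 (-0.086 to 0.16), AT3TE34290 (-0.23 to 0.22), AT1TE58735 (-0.21 to 0.13) and AT1TE72060 (-0.52 to 0.43). The 95% interval of the main value included 0 for each of these families and copies. Where a library was left out, the lone library of its genotype was assumed to vary like the other genotype. The other 504 detected copies did not pass the filter on low counts and were not tested.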
